A study of Mus musculus with 4 samples.

Results

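Gene expression in bone marrow-derived mast cells (BMMCs) kept with TGF-β1 was compared with that in BMMCs kept in plain medium. These were 2 of the 4 arrays of the series, and each condition had 1 array. All mast cells came from BALB/c mice. Per the labels' protocols, BMMCs were raised over 3 to 4 weeks in interleukin-3 (10 ng/ml) plus stem cell factor (10 ng/ml). The control culture then spent 6 days in medium, and the treated culture spent 6 days with TGF-β1 at 5 ng/ml. No selection step is named for these cultures, and the number of animals behind each is not given. The other arrays, used here only for levels set side by side, held BMMCs cocultured for 6 days with CHO cells (a hamster ovary line) that expressed the mouse Notch ligand Dll1 and then selected for c-Kit on magnetic beads, and mast cells sorted as FcεRI+ c-Kit+ from the small intestinal lamina propria of naive mice. RNA was amplified from 2 ng before hybridisation to a whole-transcript array. The deposited log2 values of probe sets with 1 gene symbol gave 22180 genes, all of which were used.

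TGF-β1 is a secreted cytokine that signals through paired serine/threonine kinase receptors. The receptors phosphorylate SMAD2 and SMAD3, which enter the nucleus with SMAD4 and bind DNA at short elements that contain the letters CAGAC. Target genes include feedback inhibitors of the pathway itself, and the outcome depends on the cell type. In the intestinal mucosa TGF-β1 is known for its part in mast cell maturation, where the chymases Mcpt1 and Mcpt2 and the integrin chain Itgae are its best known readouts.

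A gene was counted as higher or lower only where it rose above background on at least 1 of the 2 arrays. The background limit was the 95th percentile of 1440 olfactory, vomeronasal and taste receptor probe sets, at 5.12 on the control array and 5.21 on the TGF-β1 array. A value under the limit was raised to it before a fold was taken, and the fold is then printed as "at least". Of 22180 genes, 12019 passed this filter, 10899 of them on both arrays, 767 on the control array alone and 353 on the TGF-β1 array alone. With 1 array per condition there was no replicate error for any value, no test was run, and every difference below is one between these arrays. The standard deviation (SD) between log2 differences of separate probe sets of 1 gene, over 338 genes, was 0.24. It covers measurement on the array only.

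By this rule 61 genes (0.508% of those tested) were at least 2-fold higher with TGF-β1 and 107 (0.89%) at least 2-fold lower. At least 1.5-fold higher were 303 genes (2.52%), and 482 (4.01%) were at least 1.5-fold lower. A difference of any size was above 0 in 45.2% of the genes tested and below 0 in 54.8%, with a median of -0.03. Over all 22180 genes the median was 0.007. The filter bears on these shares, as it admitted 767 genes through the control array alone and 353 through the TGF-β1 array alone. For 89.5% of the genes the difference was smaller than 0.5 on the log2 scale. Every list described next is read against these shares. The share of 2-fold genes varied with the mean level of the arrays. It was largest between 6 and 7 (2.46% of 2842 genes, 26 higher and 44 lower) and 0.976% above 10. Under 6 it was 0.547%, where raising values to the limit leaves little room for a 2-fold difference.

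**Figure D1:**
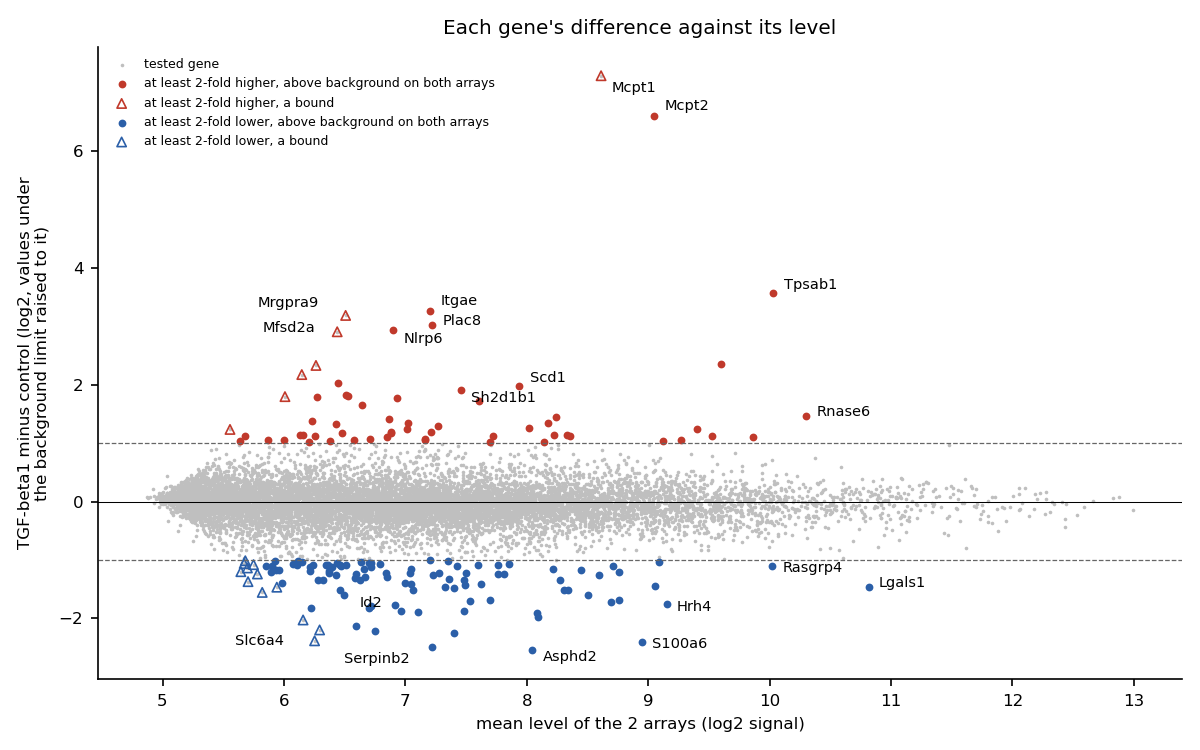
Each point is 1 of the 12019 tested genes, with the mean log2 level of the control and TGF-β1 arrays across and the log2 difference (TGF-β1 minus control, values under the background limit raised to it) upwards. Red and blue points are the 61 higher and 107 lower genes, open triangles are bounds, and dashed lines mark 2-fold. Mcpt1 and Mcpt2 stand far above the rest, and the lower genes reach no further than -2.55 (Asphd2).

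The start regions of 4 genes are shown as examples. Mcpt1 had the largest difference upwards, S100a4 and S100a6 are neighbours that were lower together, and Id2 was the transcription regulator with the largest difference downwards. Each covers 250 bases before to 50 bases from the annotated start (RefSeq, GRCm38.p6), on the gene's own strand, 5′ to 3′, and capitals mark CAGAC or, on the opposite strand, GTCTG. Their positions are chr14:56017714-56018013 (plus strand) for Mcpt1, chr3:90603520-90603819 (plus) for S100a4, chr3:90612644-90612943 (plus) for S100a6 and chr12:25096043-25096342 (minus) for Id2.
Mcpt1: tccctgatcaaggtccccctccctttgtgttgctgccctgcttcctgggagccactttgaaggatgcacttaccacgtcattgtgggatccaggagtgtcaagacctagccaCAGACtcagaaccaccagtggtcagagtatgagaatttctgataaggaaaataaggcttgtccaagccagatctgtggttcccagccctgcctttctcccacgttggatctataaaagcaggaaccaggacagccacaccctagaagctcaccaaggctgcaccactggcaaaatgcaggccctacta
S100a4: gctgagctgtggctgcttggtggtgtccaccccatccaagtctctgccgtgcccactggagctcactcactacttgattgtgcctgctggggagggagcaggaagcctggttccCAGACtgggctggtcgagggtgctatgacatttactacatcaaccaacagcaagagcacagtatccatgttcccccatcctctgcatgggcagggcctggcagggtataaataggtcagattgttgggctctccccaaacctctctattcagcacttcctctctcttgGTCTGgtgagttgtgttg
S100a6: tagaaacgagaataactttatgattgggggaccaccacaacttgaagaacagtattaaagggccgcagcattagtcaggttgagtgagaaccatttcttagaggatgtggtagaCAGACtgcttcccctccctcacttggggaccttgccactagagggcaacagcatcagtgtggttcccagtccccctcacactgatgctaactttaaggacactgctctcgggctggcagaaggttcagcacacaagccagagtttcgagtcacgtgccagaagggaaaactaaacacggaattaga
Id2: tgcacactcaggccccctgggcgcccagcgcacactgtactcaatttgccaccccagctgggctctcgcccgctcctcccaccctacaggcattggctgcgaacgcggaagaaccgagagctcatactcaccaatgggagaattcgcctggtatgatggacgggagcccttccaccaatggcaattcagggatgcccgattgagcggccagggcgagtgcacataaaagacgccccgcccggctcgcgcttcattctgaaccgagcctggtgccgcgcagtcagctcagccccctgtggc
The window held 1 match in Mcpt1, 2 in S100a4, 1 in S100a6 and 0 in Id2. The windows of the higher genes Nlrp6 and Mrgpra9, not shown here, held 0 matches each. CAGAC on either strand was present in 53.2% of 27025 such windows in the RefSeq table and in 52.3% of the 9461 tested genes with a window. It was present in 26 of 45 higher genes (57.8%) and 42 of 75 lower genes (56%), shares near those of all windows. The longer palindrome GTCTAGAC occurred in 0.328% of tested genes and in none of these 45 or 75. A match is a run of letters, not a shown binding site.

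Most mast cell identity genes were bright on both arrays. Kit, the stem cell factor receptor, read 12.65 on the control array and 12.22 with TGF-β1. The IgE receptor chains Fcer1a (12.41 and 12.40), Ms4a2 (10.85 and 10.67) and Fcer1g (9.25 and 9.14) and the transcription factor Gata2 (10.54 and 10.48) differed by less than the SD between probe sets. The granule genes Cpa3 (13.06 and 12.92), Cma1 (12.12 and 11.98), Tpsb2 (11.55 and 11.78) and Srgn (11.52 and 11.57) also read alike, near the top of the scale where a difference can be compressed. Gata1, a factor of the mast cell and erythroid lineages, read 8.24 and 7.96. The prostaglandin D synthase Hpgds read 8.43 and 8.12, the vesicular monoamine transporter Slc18a2 11.60 and 11.36, Tph1 12.18 and 12.23, Cyp11a1 12.64 and 12.42, Rab27b 9.43 and 9.05, and the adenosine receptor Adora3 7.08 and 6.91. Mrgprb2, a receptor of connective tissue mast cells, was near background (5.30 and 4.65). Of the 19 identity genes measured, 4 read higher and 15 lower, with a median of -0.16. Among them only the tryptase Tpsab1 (8.25 and 11.81) passed 2-fold, while Mitf (8.92 and 8.26) and Hdc (6.62 and 5.68) were at least 1.5-fold lower. These 2 are 10.5% of the list, against 4.01% of all tested genes.

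Markers of other cells were mostly dim. Summed linear signals here cover all measured members of a list, so members under the limit add floor signal to them. Of 20 neutrophil and promyelocyte markers 9 passed the filter, and the summed signal of all 20 was 706 on the control array and 698 with TGF-β1. Elane (4.87 and 4.89), Ngp (4.70 and 5.10) and S100a8 (4.58 and 5.10) were under the limit on both arrays. Of 10 eosinophil markers 3 passed (summed signal 329 and 288), and Epx (4.92 and 4.71) and Siglecf (4.82 and 5.03) were below the limit. Of 24 macrophage and dendritic cell markers most passed, 14 in number, with median levels of 5.61 and 5.51 among these 14. The sums of the list (6752 and 7193) rest on members brighter than those medians. Csf1r (5.01 and 5.12) and C1qb (4.95 and 4.98) were among those that did not pass. Of 21 lymphoid markers 8 passed (699.7 and 733), with Cd3e (4.80 and 4.66) and Cd79a (4.89 and 5.00) below the limit. Of 11 erythroid markers 4 passed (524 and 616), and Klf1 was below the limit (5.04 and 5.07). Car2 (0.79) and Tfrc (0.76) were 2 of these 4 and at least 1.5-fold higher, against 2.52% of all tested genes. Elsewhere, Ly6g (neutrophil, -1.10) and Mmp12 (macrophage, -2.20) were at least 2-fold lower, and Eomes (lymphoid, 1.18) at least 2-fold higher. The macrophage list had 2 members at least 1.5-fold lower and 0 higher, the lymphoid list 1 each way. Ccr3 of the eosinophil list (-0.69) was also at least 1.5-fold lower. All 20 basophil markers passed, with a summed signal of 21717 and 19920 that rests on the brightest of them. Of the 20, 6 (30%, against 4.01% of all tested genes) were at least 1.5-fold lower with TGF-β1 and 0 higher. By 2-fold, 2 of them (L1cam and Csf1) were lower, and the median of the 20 markers was -0.15. Many of these are also mast cell genes. The basophil protease Mcpt8 read 8.50 and 7.68, Prss34 5.74 and 5.19, and Cd200r3 8.91 and 8.80. The part of basophil-type cells in the results below was not tested, and fewer cells of a type and less RNA per cell cannot be told apart in these arrays.

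The TGF-β pathway was present in both cultures, with its main receptors slightly lower and some feedback genes higher in the treated one. Of 36 ligands, receptors, SMADs and regulators, 28 passed the filter, with a median difference of 0.03, and of 27 response genes 21 passed, with a median of 0.13 (0.08 over all measured). Among the ligands, Tgfb1 read 10.19 on both arrays, Tgfb3 was near background (5.34 and 5.20) and Tgfb2 below it (4.74 and 4.68). Ltbp1, which holds latent TGF-β in the matrix, read 5.29 and 6.14 (1.8-fold higher). The receptors Tgfbr1 (9.56 and 9.03) and Tgfbr2 (8.48 and 7.98) were each 1.4-fold lower, and the BMP receptor Bmpr2 (10.27 and 9.65) was 1.53-fold lower. Acvr1 (6.58 and 6.55), Acvr1b (6.61 and 6.81), Bmpr1a (5.46 and 5.53) and the co-receptor Eng (5.87 and 5.99) read alike, and Acvr2a was near the limit (5.44 and 4.93). The signal-carrying Smad2 (8.34 and 8.18) and Smad4 (8.64 and 8.54) differed little, Smad3 was close to background (5.00 and 5.38), and the BMP-side Smad1 (6.79 and 7.16) and Smad5 (6.97, with a difference of 0.03) were detected.

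Inhibitors of the pathway did not move as a block. Skil, a corepressor that binds SMADs, read 5.77 in control and 7.09 with TGF-β1 (2.50-fold), while its relative Ski read 8.02 and 7.61. Ldlrad4, a membrane protein that binds SMAD2 and SMAD3, read 5.63 and 7.43 (3.50-fold). The inhibitory Smad7 was 1.5-fold higher (7.42 and 8.01), whereas Smad6 was below background (4.61 and 4.80). The ubiquitin ligases Smurf1 (7.80 and 7.84) and Smurf2 (6.98 and 6.82), the pseudoreceptor Bambi (5.21 on both) and the repressors Tgif1 (5.51 and 5.84) and Tgif2 (5.48 and 5.64) stayed within 1.5-fold. Pmepa1, another feedback inhibitor, was near the limit and lower (5.45 and 5.06). Skil read 5.79 with Dll1 and 8.55 in intestinal cells, and Ldlrad4 5.86 and 9.55 there.

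Response genes read higher more often than lower. Of 21 that passed the filter 15 read higher and 6 lower, 5 and 1 of them by at least 1.5-fold (23.8% and 4.76%). Among all tested genes these shares were 2.52% and 4.01%. The list was chosen with earlier results of these data known, and its largest difference is that of Itgae, a known readout. Its share of higher genes therefore depends in part on that choice. By 2-fold, 4 response genes were higher and 1 lower. Gadd45b, a stress-inducible growth arrest gene, read 6.35 and 7.69 (2.54-fold higher) and Itgae, the αE chain that pairs with Itgb7, 5.57 and 8.84. Runx3, a partner of SMADs in leukocytes, read 8.76 and 9.21, against 10.47 and 9.90 for Runx1. Klf10 (6.34 and 6.37), Junb (8.33 and 8.47), Bhlhe40 (9.77 and 9.80), Cdkn1a (10.75 and 10.67), Cdkn2b (5.87 and 6.07) and Tgfbi (5.45 and 5.64), all genes known to respond to TGF-β in other cells, were within 1.5-fold at this time. The inhibitors of DNA binding, which BMP signalling induces, differed among themselves: Id2 read 7.90 and 6.02 (3.68-fold lower), Id3 was near background (5.25 and 5.37), and Id1 (5.07 and 4.77) and Id4 (4.80 and 4.81) were below it. Gdf11 and Bmp7 are ligands of the family outside the counted list of ligands, receptors, SMADs and regulators. Gdf11 read 7.50 and 8.84 (2.53-fold higher) and Bmp7 9.55 and 7.83 (3.30-fold lower), so they lay in opposite directions.

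Nearly all measured genes of cell division read higher with TGF-β1, although few passed 2-fold. Of 61 measured mitosis genes, all of which passed the filter, 59 read higher with TGF-β1, and the median difference was 0.53, against -0.03 for all tested genes. At least 1.5-fold higher were 22 (36.1%, against 2.52% of all tested genes), and 0 were lower by that much. The kinetochore protein Ndc80 read 6.63 and 7.68 (2.07-fold), the transcription factor Mybl2 6.66 and 7.61, the spindle checkpoint kinase Bub1b 6.71 and 7.62, and the spindle motor Kif11 7.57 and 8.45. The proliferation marker Mki67 read 9.37 and 9.85 and the mitotic kinase Cdk1 8.44 and 9.07. The exceptions were Kif23 (-0.21) and Cks2 (-0.06). Among 59 genes of DNA replication and repair, 54 read higher, 15 (25.4%) by at least 1.5-fold, 0 were lower by as much, and the median was 0.38. Tyms, which makes thymidylate, read 7.66 and 8.80 (2.20-fold), the chromatin helicase Hells 6.25 and 7.24, the ligase Lig1 8.36 and 9.18, and the replicative helicase subunit Mcm5 8.94 and 9.76. The sliding clamp Pcna, already bright, read 10.52 and 10.74. Over both lists together, 113 of 120 genes read higher (median 0.46).

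Genes that hold cells out of the cycle showed no common shift. Of 29 measured growth arrest genes 28 passed the filter, with a median of -0.09, 1 higher and 4 lower by at least 1.5-fold. The antiproliferative genes Btg2 (6.26 and 5.41) and Btg1 (6.86 and 6.15) and the retinoblastoma relative Rbl2 (9.94 and 9.30) were among the 4, as was Ccnd2, a D-type cyclin placed in this list that itself drives entry into the cycle (10.89 and 10.10). Rbl1 differed the other way (8.47 and 9.04), and the kinase inhibitor Cdkn1b read 7.80 and 7.52. On the Dll1 array the mitosis genes had a median of -0.38 against the same control, and on the intestinal array 0.34.

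The machinery of ribosome production was also higher. Of 36 ribosome biogenesis genes and MYC targets 33 read higher, with a median of 0.34, and Myc itself read 8.09 and 8.71 (1.53-fold). Cad, the enzyme that opens pyrimidine synthesis, read 7.60 and 8.53, the nucleolar protein Nop56 7.85 and 8.47, and the transferrin receptor Tfrc 6.20 and 6.96. Eif4ebp1, which restrains translation, was the exception past 1.5-fold (7.44 and 6.71). Among 42 cytosolic ribosomal proteins, of which 39 passed the filter, 37 of the 39 read higher and the median was 0.27 (0.26 over all 42). Only Rps7 (5.48 and 6.25) and Rpsa (9.25 and 9.88) passed 1.5-fold, and probe sets of ribosomal proteins can pick up pseudogene copies. Relative to the same control, ribosome biogenesis genes had medians of 0.20 with Dll1 and 0.56 in intestinal cells. Ribosomal proteins had 0.28 and 0.35 over all 42, so both lists also read higher on those arrays. Of 12 core histones above background, among 16 measured, 8 read higher (median 0.31, and 0.18 over all 16).

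Mitochondrial and folate enzymes followed the same direction. In the citric acid cycle and the folate pathway that feeds nucleotide synthesis, 28 of 31 genes read higher, with a median of 0.26. By at least 1.5-fold, 8 were higher (25.8%, against 2.52% of all tested genes). Mthfd1l, the mitochondrial enzyme that releases formate, read 6.62 and 7.70 (2.11-fold), the cytosolic Mthfd1 7.08 and 7.90, and the isocitrate dehydrogenase subunit Idh3a 7.41 and 8.16. The members with differences below 0 were Idh3g (-0.15), Pdha1 (-0.13) and Pdhb (-0.01). Oxidative phosphorylation subunits were higher in 34 of 46 cases by small amounts (median 0.17, none past 1.5-fold), as were mitochondrial ribosome and import genes in 30 of 35 (median 0.16). The Dll1 and intestinal arrays also had medians above 0 against this control. They were 0.07 and 0.34 for the citric acid cycle and folate genes and 0.08 and 0.16 for oxidative phosphorylation. For mitochondrial ribosome and import they were 0.15 and 0.18. The mitochondrial proteins Mrpl52 (7.16 and 8.28) and Chchd10 (5.12 and 6.24), outside these lists, were 2.18-fold higher.

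Glycolysis and hypoxia genes read lower more often than higher, by small amounts. Of 40 measured genes of glycolysis and the hypoxia response 35 passed the filter, and of these 6 read higher and 29 lower, with a median of -0.15 (-0.14 over all 40). The SD between probe sets (0.24) gauges single genes and gives no spread for a median over 35. Other lists had like medians, such as growth factor and cytokine receptors (-0.16) and the degranulation machinery (-0.15). By at least 1.5-fold, 0 were higher and 3 lower (8.57%, against 4.01% of all tested genes). Ndrg1, a hypoxia-responsive gene, read 9.04 and 7.13 (3.75-fold lower), and its second probe set also differed downwards (-1.25). The glucose transporters Slc2a3 (9.33 and 8.68) and Slc2a1 (9.81 and 9.21) were each at least 1.5-fold lower, and the phosphofructokinase Pfkp read 10.11 and 9.60. A second, dim probe set of Slc2a1 differed slightly upwards (5.24 and 5.36). Pgk1 (8.68 and 8.88) and Ldha (6.59 and 6.52) did not follow.

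**Figure D2:**
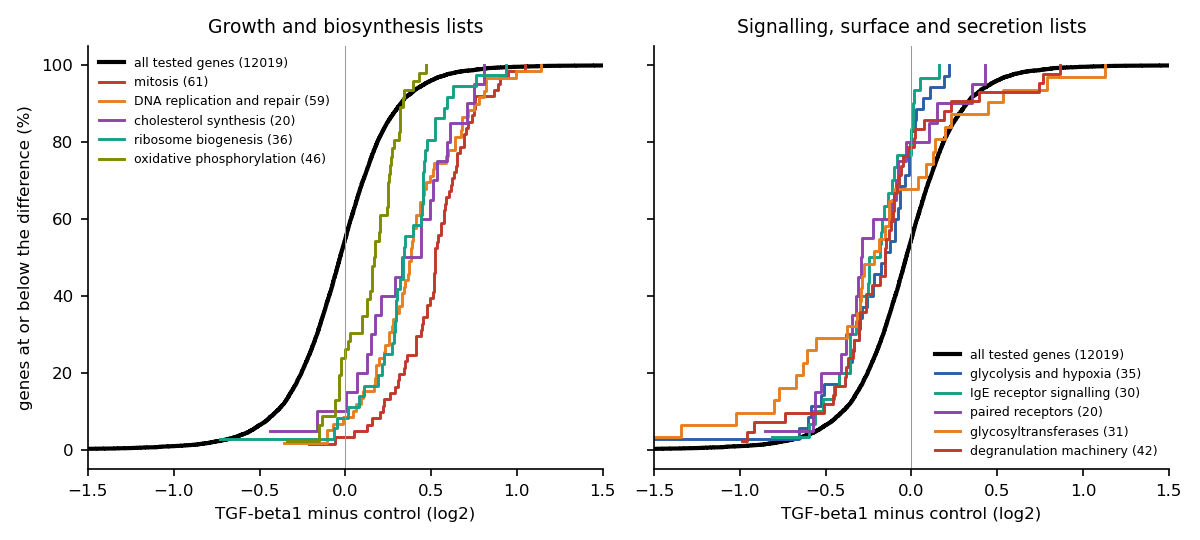
Cumulative curves of the measured log2 difference (TGF-β1 minus control) for the tested members of 10 gene lists, beside all tested genes in black; the number of genes is in brackets and the horizontal axis is cut at -1.5 and 1.5. Mitosis, replication, cholesterol and ribosome biogenesis curves lie to the right of the black curve at nearly every height, and the lists in the right panel lie to its left over much of the range.

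A few genes of fatty acid synthesis and transport were much higher, without a shift of the whole list. Scd1, which makes monounsaturated fatty acids, read 6.95 and 8.93 (3.95-fold), against 5.97 with Dll1 and 4.79 in intestinal cells, where it was under the limit. Fatty acid synthase Fasn read 10.29 and 10.88 and the elongase Elovl6 7.31 and 7.96 (1.57-fold). Elovl7, an elongase of very long chains, differed the other way (6.78 and 5.70). Mfsd2a, a transporter of lysophosphatidylcholine that carries omega fatty acids, was under the limit in control (4.85) and read 8.02 with TGF-β1, at least 7.50-fold higher. The fatty acid binding protein Fabp5 read 7.39 and 8.65 (2.40-fold), with a second probe set at 1.26 and a dim one at 0.10. Over the 38 measured genes of fatty acid and phospholipid synthesis and transport, of which 34 passed, 5 were higher and 1 lower by at least 1.5-fold, and the median was 0.07 (0.06 over all 38).

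For cholesterol synthesis, 18 of 20 genes read higher and 5 by at least 1.5-fold (25%, against 2.52% of all tested genes), with a median of 0.39. Cyp51, a sterol demethylase, read 7.53 and 8.34, Hsd17b7 6.89 and 7.64, and the isoprenoid synthase Fdps 9.67 and 10.38. The epoxidase Sqle did not differ (10.33 on both), nor did the controlling factor Srebf2 pass 1.5-fold (9.81 and 9.65). The same list had a median of -0.97 with Dll1 and -0.14 in intestinal cells, each against the shared control. The fatty acid ω-hydroxylases Cyp4a12a (7.66 and 5.53) and Cyp4a12b (8.42 and 6.55) were 4.36-fold and 3.68-fold lower, and as near-identical neighbours they may share probes.

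Integrin chains differed in both directions. Besides Itgae, the laminin-binding chain Itga7 was under the limit in control (5.08) and read 7.45 with TGF-β1, and Itgb7, the partner of both Itgae and Itga4, read 8.68 and 9.27 (1.51-fold). Itga4 read 7.21 and 5.71 (2.84-fold lower), but 10.04 with Dll1 and 8.89 in intestinal cells. The leukocyte chain Itgb2 read 7.22 and 5.97 (2.37-fold lower) and the vitronectin receptor chain Itgb3 7.86 and 6.85 (2.02-fold lower). Other chains read alike, such as Itgb1 (7.42 and 7.57), Itga5 (7.40 and 7.33) and Itgav (6.71 and 6.74). Of 25 integrin genes 17 passed the filter, 8 of them higher and 9 lower.

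Outside the integrins, E-cadherin (Cdh1), which binds αEβ7 on epithelial cells, read 6.16 and 7.57 (2.66-fold higher) and 10.12 on the intestinal array, although its second, dim probe set showed no difference (4.64 and 4.74). L1cam, a neural adhesion molecule, read 8.14 and 6.66, the sialic acid receptor Cd33 8.95 and 7.60, and the tetraspanin Cd9 9.26 and 8.16, all at least 2-fold lower. The second probe set of Cd9 was below background on both arrays (4.54 and 4.54). Focal adhesion proteins followed in both directions: kindlin Fermt2 read 5.86 and 6.90 (2.05-fold higher), and Tns1 (7.62 and 5.79), leupaxin Lpxn (8.80 and 7.64) and vinculin Vcl (10.99 and 10.15) were lower. In the list of 40 other adhesion receptors, 29 passed, 7 read higher and 22 lower, and the median was -0.17 (-0.11 over all 40).

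The SLAM pathway was higher at a receptor and an adaptor. Cd244a, a SLAM family receptor, read 8.74 in control and 9.80 with TGF-β1 (2.09-fold higher), and the adaptor Sh2d1b1, which binds the tails of such receptors, 6.50 and 8.42 (3.77-fold). Its ligand Cd48 read 8.36 and 8.59, and Cd84, another family member, differed the other way (9.42 and 8.80). Of 15 measured family genes 10 passed the filter, 5 of them higher and 5 lower.

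Neighbouring S100 genes were lower together. S100a6, a small calcium-binding protein, read 10.15 in control and 7.75 with TGF-β1 (5.26-fold lower), and S100a4 8.52 and 6.28 (4.73-fold lower); they lie 2 places apart in the gene order, and their start windows are shown above. The family did not follow: S100a1 (9.30 and 9.29), S100a11 (8.36 and 8.27) and S100a13 (9.53 and 9.49) read alike, S100a10 read 10.71 and 10.25, and S100a8 and S100a9 were below background. Among the annexins, which bind membranes with calcium and in part pair with S100 proteins, Anxa9 read 6.48 and 5.61, Anxa5 10.57 and 10.13 and Anxa1 7.12 and 6.89. Of 27 measured members 15 passed, 2 of them higher and 13 lower, with a median of -0.24 (-0.04 over all 27). The galectin Lgals1 read 11.55 and 10.09 (2.75-fold lower), and Ahnak2, a giant scaffold, 7.86 and 6.60, with a second probe set at -0.46.

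Glycosyltransferases past 1.5-fold were more often lower than higher. Of 37 measured, 31 passed the filter, 10 of them reading higher and 21 lower, 2 and 8 by at least 1.5-fold, and the median was -0.22 (-0.13 over all 37). The 2 and 8 are 6.45% and 25.8%, against 2.52% and 4.01% of all tested genes. Among enzymes that act on glycolipids, Ugcg, which adds the initial glucose to ceramide, read 8.27 and 7.47, and B4galt5, which makes lactosylceramide, 7.02 and 6.25, each about 1.7-fold lower. From there A4galt, which makes globosides, read 9.08 and 7.10 (3.94-fold lower), and the sialyltransferases St3gal5 (6.47 and 5.84) and St3gal2 (8.16 and 6.81, 2.54-fold) were lower too. The lysosomal activator Gm2a, which presents gangliosides for breakdown, read 9.60 and 8.57 (2.04-fold lower), whereas the ganglioside sialyltransferase St6galnac5 was higher (6.16 and 6.95). The mucin-type initiators Galnt3 (6.63 and 5.61) and Galnt12 (5.70 and 6.82) differed in opposite directions by more than 2-fold.

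Genes of proteoglycan synthesis and sulfation showed no common shift. Of 33 measured, 29 passed the filter, 11 of them reading higher and 18 lower, 2 and 3 by at least 1.5-fold, and the median was -0.09 (-0.06 over all 33). Dse, the epimerase that turns chondroitin into dermatan sulfate, read 6.76 and then 4.88, under the limit, which makes it at least 2.94-fold lower. Xylt1, which starts the sugar chains, read 7.43 and 6.55, and the heparan sulfotransferase Hs6st1 8.22 and 7.46. The chondroitin polymerising enzymes Chsy1 (9.14 and 9.91) and Chpf (5.63 and 6.23) were instead at least 1.5-fold higher. The heparin sulfotransferase Ndst2, characteristic of mast cells, read 11.21 and 10.93. Outside this list, Chst1, which sulfates galactose in keratan-type chains, read 7.13 and 5.31 (3.54-fold lower).

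**Figure D3:**
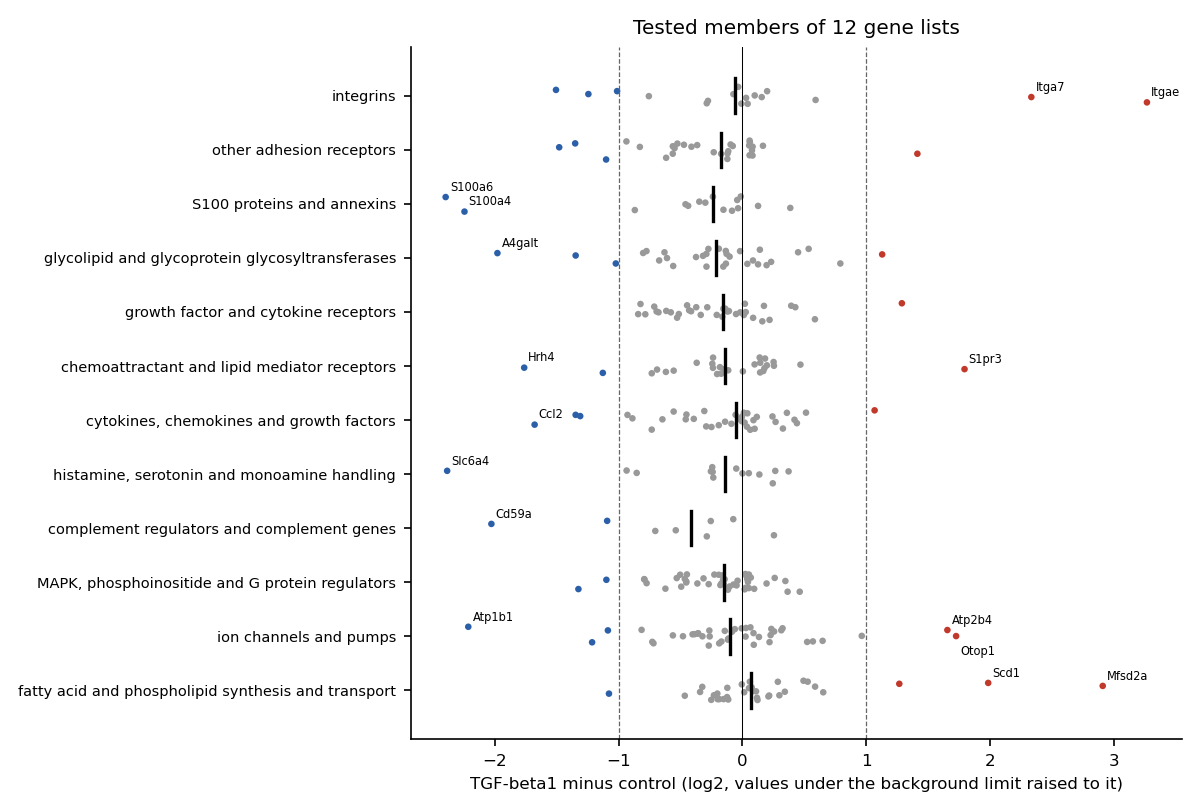
Each point is a tested member of 1 of 12 gene lists, placed by its log2 difference (TGF-β1 minus control, values under the background limit raised to it); black bars are the medians of the measured differences and dashed lines mark 2-fold. Points past 2-fold are coloured, and those beyond 1.6 on the log2 scale are named; most members of every list lie between the dashed lines.

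Receptors for chemoattractants and lipid mediators were divided. Of 44 measured, 28 passed the filter, 13 of them reading higher and 15 lower, 1 and 5 by at least 1.5-fold, and the median was -0.14 (-0.03 over all 44). The histamine receptor Hrh4 read 10.03 and 8.27 (3.39-fold lower) and Hrh2 5.94 and 4.86, under the limit. The prostacyclin receptor Ptgir (6.78 and 5.65) and the chemokine receptor Ccr3 (5.93 and 5.24) were lower by 2.18-fold and 1.61-fold, whereas Ccr2 (6.22 and 6.69) differed little. S1pr3, a receptor for sphingosine phosphate, differed the other way (5.38 and 7.17, 3.46-fold higher) and read 7.68 on the intestinal array. Outside this list, the calcitonin-receptor-like Calcrl read 7.49 and 6.20 (2.43-fold lower), and the adhesion receptors Adgrg1 (7.76 and 8.91) and Adgrg3 (8.96 and 10.09), chromosome neighbours, were 2.21-fold and 2.19-fold higher.

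Mas-related receptors did not share a direction. With nucleotide, adenosine and neuropeptide receptors, 30 were measured and 19 passed the filter, 3 higher and 3 lower by at least 1.5-fold (median -0.11, and -0.04 over all 30). Mrgpra9 was under the limit in control (4.71) and read 8.30 with TGF-β1, at least 9.11-fold higher, 4.59 with Dll1 and 10.23 in intestinal cells. Mrgprb13 read 5.59 and 6.73 (2.21-fold higher), while the bright Mrgpra4 read 11.09 and 10.12 (1.96-fold lower) and Mrgprb1 was below the limit throughout. The genes of this family resemble each other in sequence, so probes may be shared. Among nucleotide receptors P2ry1 was higher (7.97 and 8.79) and P2rx1 lower (8.19 and 7.47).

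Genes of histamine, serotonin and monoamine handling showed no common shift. Of 19 measured, 14 passed the filter, 6 of them reading higher and 8 lower, 0 and 3 by at least 1.5-fold, and the median was -0.14 (-0.01 over all 19). The serotonin transporter Slc6a4 read 7.59 in control and was under the limit with TGF-β1 (4.91), at least 5.22-fold lower, and it was near the limit on the Dll1 (5.16) and intestinal (5.06) arrays. Histidine decarboxylase Hdc was 1.91-fold lower, and Ddc, which forms serotonin from its precursor, read 8.17 and 7.31. Tph1, which starts serotonin synthesis (12.18 and 12.23), the vesicle transporter Slc18a2 (11.60 and 11.36) and Gch1 (8.10 and 8.35), which makes the cofactor of tryptophan hydroxylase, differed little, and the oxidase Maoa, near background, read 4.74 and 5.38. Gchfr, the feedback regulator of Gch1 and no member of the list, read 8.44 and 7.19 (2.37-fold lower).

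Prostaglandin and leukotriene synthesis genes showed no common shift. Of 25 measured, 19 passed the filter, 11 of them reading higher and 8 lower, with a median of 0.03, and 1 passed 1.5-fold. That member was Pla2g7, the enzyme that inactivates platelet-activating factor, which read 9.06 and 7.55 (2.85-fold lower). Alox5 differed by -0.10 and the leukotriene synthase Ltc4s by 0.05. Outside the list, the lipoxygenase Alox8 read 7.27 and 6.15.

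Cytokines past 1.5-fold were more often lower than higher. Of 59 measured cytokine, chemokine and growth factor genes 37 passed the filter, 15 of them reading higher and 22 lower, 1 and 7 by at least 1.5-fold, and the median was -0.06 (near 0 over all 59). The 1 and 7 are 2.70% and 18.9%, against 2.52% and 4.01% of all tested genes. The monocyte attractant Ccl2 read 9.60 and 7.92 (3.20-fold lower), the macrophage growth factor Csf1 7.30 and 5.95, Ccl3 7.24 and 5.93, Ccl6 8.02 and 7.09, and Il4 7.06 and 6.41. Il1b was the exception (6.18 and 7.24, 2.09-fold higher), and Il13 (6.32 and 6.42), Il6 (8.18 and 8.69) and Tnf (6.90 and 6.34) were within 1.5-fold. Csf1 and Ccl3 read 8.54 and 8.40 on the Dll1 array and 8.53 and 9.98 on the intestinal array. Angpt1, a vessel-stabilising factor, read 9.78 and 8.34 (2.71-fold lower), but its second probe set was below background (4.78 and 4.61).

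Among 48 growth factor and cytokine receptors, 36 passed, 1 higher and 7 lower by at least 1.5-fold (median -0.16, and -0.12 over all 48). The 1 and 7 are 2.78% and 19.4%, against 2.52% and 4.01% of all tested genes. Tnfrsf9, a costimulatory receptor, read 6.62 and 7.91 (2.44-fold higher). Il1rap, the shared chain of the interleukin-1 and interleukin-33 receptors, read 7.97 and 7.13, Il18r1 7.60 and 6.91, Il3ra 8.48 and 7.87, and Il2ra 6.21 and 5.43. The common β chains Csf2rb (10.57 and 10.43) and Csf2rb2 (12.24 and 12.12) read alike. The binding protein Igfbp4 read 6.29 and 7.48 (2.27-fold higher) and Igf1r 6.77 and 6.09. Socs2, a feedback inhibitor of cytokine signalling, read 8.02 and 6.70 (2.50-fold lower), although its second probe set showed little difference (5.95 and 5.82).

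IgE receptor signalling and secretion genes were lower by small amounts. Of 31 measured signalling genes 30 passed, 5 reading higher and 25 lower, with a median of -0.21 (-0.19 over all 31), and none reached 2-fold. Among all tested genes 54.8% read lower. Against the same control, the median over all 31 was -0.19 with Dll1 and -0.33 in intestinal cells, so the list was lower there too. The adaptor Sh3bp2 read 7.06 and 6.25, the kinases Tec 7.80 and 7.20 and Btk 9.90 and 9.44, the calcium sensor Stim1 8.82 and 8.26, and the adaptor Lat2 11.38 and 10.87. Syk (7.62 and 7.45) was lower by less than the SD between probe sets, and Fcer1a did not differ. Further signal carriers passed 2-fold: the mast cell Ras activator Rasgrp4 read 10.57 and 9.47 (2.14-fold lower, its second probe set at -0.81), the adaptor Blnk 8.21 and 6.78, the G protein subunit Gnaz 7.69 and 6.30, and Rgs9, which speeds G protein shut-off, 8.05 and 6.15. The Rac activator Prex1 read 6.95 and 5.61. Among 36 paired inhibitory and activating receptors, 20 passed, 4 reading higher and 16 lower (median -0.29, and -0.09 over all 36), for example Pirb (9.99 and 9.42).

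For the secretory machinery, 42 of 47 genes passed, and 9 read higher and 33 lower, with a median of -0.15 (-0.13 over all 47). Against the same control, the median over all 47 was -0.12 with Dll1 and -0.27 in intestinal cells. The granule-docking proteins Sytl1 (7.10 and 6.11), Sytl2 (7.18 and 6.22) and Mlph (8.53 and 7.79), partners of Rab27, and Lyst (8.12 and 7.20), which governs granule size, were at least 1.5-fold lower. Vamp5 (6.93 and 7.80), Nsf (7.67 and 8.44) and Syt9 (5.44 and 6.19) were at least 1.5-fold higher. Vamp8, a fusion protein of mast cell granules, read 10.35 and 10.54.

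Pumps and channels differed singly, in both directions. The sodium pump subunit Atp1b1 read 7.85 and 5.64 (4.63-fold lower), in contrast with 10.22 with Dll1 and 10.98 in intestinal cells, and its relative Atp1b3 read 8.33 and 8.98 (1.57-fold higher). The calcium pump Atp2b4 (5.81 and 7.47) and the proton channel Otop1 (6.75 and 8.47) were 3.15-fold and 3.30-fold higher, and the cation channel Trpm2 (6.50 and 5.29) was 2.32-fold lower. Cybrd1, a ferric reductase, read 7.29 and 5.70, and the metal-binding Mt1 6.39 and 7.63 (2.36-fold higher).

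Few transcription factors passed 2-fold. Of 67 measured lineage factors 56 passed, 14 reading higher and 42 lower (median -0.14, and -0.12 over all 67), and beside Id2 only Eomes passed 2-fold (5.89 and 7.07). The ligand-activated Ahr was 1.79-fold lower. Bcl3, a partner of NF-κB, read 5.70 and 6.71 and the epithelial ETS factor Ehf 5.56 and 6.71, both at least 2-fold higher. The splicing regulator Hnrnpll, which acts on CD45 in lymphocytes, read 8.78 and 10.02 (2.37-fold higher). Immediate early genes, which mark recent handling or stimulation, had a median of -0.09, against 1.20 with Dll1 and 3.25 in intestinal cells relative to the same control, and heat shock (median 0.08) and unfolded protein response genes (0.06) had no member past 1.5-fold.

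Innate sensing and defence genes differed singly. Nlrp6, an inflammasome sensor of the intestinal epithelium, read 5.43 and 8.36 (7.63-fold higher), 6.99 with Dll1 and 5.65 in intestinal cells, and Nlrc3, a restrainer of innate signalling, 6.29 and 7.40. Nlrp3 read alike (7.93 and 7.92). Among interferon-response genes, Ifitm3 was higher (9.31 and 10.41) and Gbp4 (9.31 and 7.71) and Ifitm1 (8.15 and 7.37) were lower. The antimicrobial ribonuclease Rnase6 read 9.57 and 11.04 (2.77-fold higher) and Plac8 5.71 and 8.74 (8.14-fold higher). Cd274, the ligand of PD-1, read 7.15 and 6.12.

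Several complement and platelet-type genes were lower, with small medians over all measured members. The lytic complex inhibitor Cd59a read 7.24 and then 5.08, under the limit (at least 4.07-fold lower), Cd46 5.91 and 5.12, and properdin, Cfp, 8.14 and 7.05. Of 18 measured complement genes 8 passed, 2 of them through the control array alone, and 3 were at least 1.5-fold lower. Their median was -0.41, against -0.07 over all 18, so it rests on which genes passed. Among 24 platelet and megakaryocyte genes 15 passed, with a median of -0.36 (-0.16 over all 24). Summed linear signals of all 24 were 8304 and 6574. At least 1.5-fold higher and lower were 6.67% and 26.7% of the 15, against 2.52% and 4.01% of all tested genes. Gp5 (7.83 and 6.31), Vwf (7.23 and 6.08), Itgb3 and Cd9 were at least 2-fold lower, but F13a1, the clot-stabilising transglutaminase, was higher (7.63 and 8.65), and the platelet chemokines Pf4 (4.77 and 4.59) and Ppbp (4.79 and 4.93) were below background. Serpinb2, an inhibitor of plasminogen activators, read 8.46 and 5.98 (5.58-fold lower), and the elastase Mmp12 7.41 and 5.18, under the limit (at least 4.58-fold lower).

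The remaining genes with large differences belonged to no list with a common direction. Asphd2 had the largest difference downwards among genes above background on both arrays (9.32 and 6.77, 5.84-fold). Homer2, a scaffold of calcium signalling, read 5.59 and 7.42 (3.55-fold higher), neuritin Nrn1 7.52 and 8.97, and the scaffold-type Arfgef3 6.04 and 7.81. Ddah1, which degrades methylarginine inhibitors of nitric oxide synthase, read 5.00, under the limit, and 7.29 (at least 4.51-fold higher). Adenosine kinase Adk (8.38 and 7.32) and pyridoxal kinase Pdxk (9.36 and 8.15) were at least 2-fold lower. F13a1 and Nrn1 are neighbours in the gene order, as are Cd9 and Vwf.

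**Figure D4:**
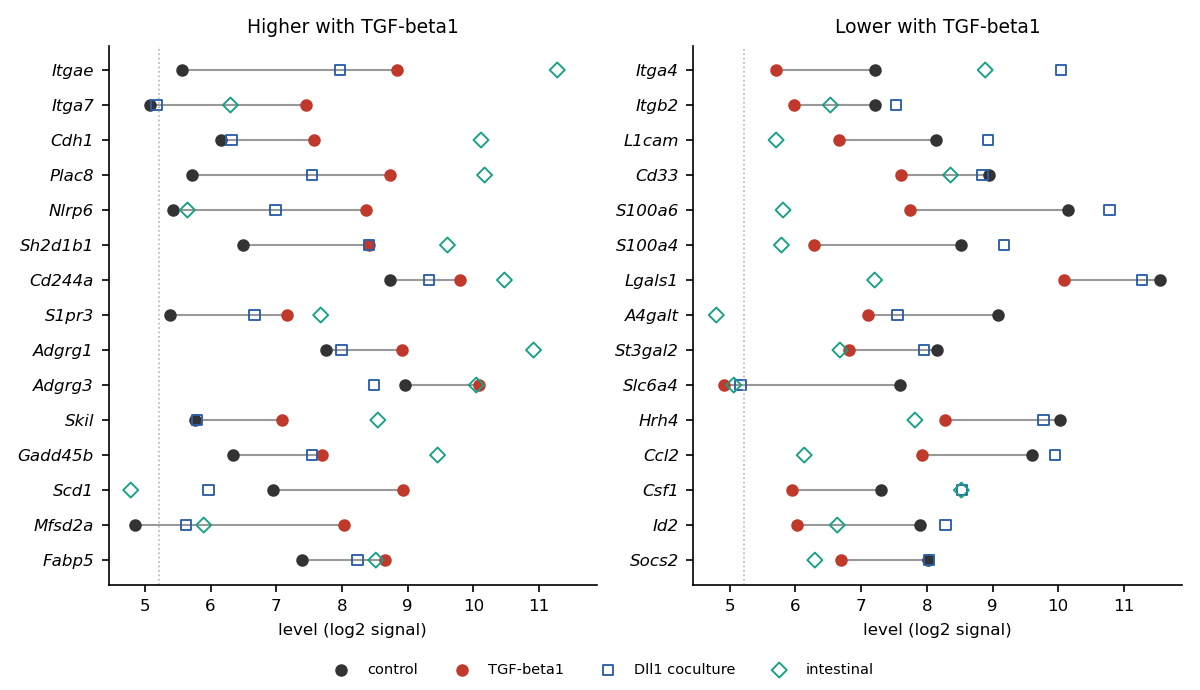
Log2 levels of 15 genes that were higher (left) and 15 that were lower (right) with TGF-β1, for control (black circle), TGF-β1 (red circle), Dll1 coculture (open square) and intestinal mast cells (open diamond), 1 array each; grey lines join control to TGF-β1 and the dotted line is the background limit of the TGF-β1 array (5.21). The other arrays lie on either side of the joined pair, as for Itga4, which reads 10.04 on the Dll1 array, and Scd1, which reads 4.79 on the intestinal array.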

How the data were processed

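The deposited table gives log2 values of 33793 probe sets on Affymetrix arrays. The authors' summarisation, normalization and genome build were not given in the sources used here. Both arrays had nearly equal distributions, so no further normalization was applied. Of these probe sets, 23521 had 1 symbol, 1814 several and 8458 were not listed. For 1082 genes with more than 1 probe set, the probe set brightest on average was kept. The values have a floor near 4 that compresses dim genes. The number of arrays limits the precision, and there is no depth.

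Differences, counts and medians were computed with Python 3.11.15, numpy 2.4.6 and pandas 2.3.3, and the size rule was checked on simulated data. The members and the 60 gene lists were chosen with earlier results of these data known. Older symbols were matched through RefSeq synonyms. Text names come from genes past 2-fold, the 6 most different members of any list, all members of the mast cell identity, TGF-β pathway and response lists, and other members of a counted family. Predicted genes, small RNAs and receptor segments were left out. Alternatives were array medians subtracted, quantile normalization, other limits or none, the mean over probe sets, genes above the limit on both arrays, and an offset of 16 subtracted.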

Additional observations from a re-analysis of the deposited data

Results flagged for a closer look

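Probe sets without a single gene symbol entered no comparison above. Of 8458 without a symbol, 2327 were above background on at least 1 of the 2 arrays, 14 were at least 2-fold higher with TGF-β1 and 9 lower. Of 1814 with several symbols, 919 were above background, 2 were at least 2-fold higher and 6 lower. Probe set 17218412 read 7.53 in control and 10.16 with TGF-β1 (6.17-fold). Probe set 17299101 read 5.44 in control and 7.42 with TGF-β1. Probe set 17318083 read 9.94 and 11.80. The transcripts behind these probe sets are not named in the annotation used here.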

How the results depend on the processing

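No paired analysis was possible because each group had 1 array. Subtracting an offset of 16 on the linear scale, which lifts the compression of dim genes, gave 110 genes at least 2-fold higher and 184 lower, and 557 and 749 at 1.5-fold. All 61 and 107 genes were among them. The other alternatives gave 49 to 66 higher and 84 to 116 lower genes at 2-fold. At 1.5-fold, quantile normalization gave 334 higher and 406 lower, and array medians subtracted gave 262 and 553. With array medians subtracted (a shift of 0.03), 58 of the 61 and all 107 were called. List medians reversed for 2 small lists: erythroid markers gave -0.065 with the limit at the 90th percentile (main value 0.31, 4 of 11 tested), and eosinophil markers gave 0.016 with no limit (main value -0.66, 3 of 10 tested). Other list medians that changed sign under a setting had main values from -0.08 (lymphoid markers) to 0.09 (macrophage and dendritic cell markers). Both arrays are single, so these settings say nothing of variation between cultures.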
